A study of Homo sapiens with 24 samples.

Results

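NEAT1 and MALAT1 are long noncoding RNAs that stay in the nucleus and whose genes lie next to each other on chromosome 11. They were taken as the entries with these symbols in each of 24 deposited gene tables, 2 of 58174 gene symbols with usable values, and both were among the 15828 genes that passed the filter on low values. They had been picked with their levels over the groups already known, so their levels and differences are given as a description, with no test. All libraries came from HEK293A cells, a line of adherent cells first grown out of human embryonic kidney, kept in medium with serum on hydrogels coated with fibronectin whose stiffness was 40 or 1 kPa. The genotypes were RAP2A/B/C-tKO (RAP2 tKO), labelled as lacking the small GTPases RAP2A, RAP2B and RAP2C, LATS1/2-dKO (LATS dKO), lacking the Hippo kinases LATS1 and LATS2, YAP/TAZ-dKO (YAP/TAZ dKO), lacking the coactivators that these kinases restrain, and WT. Each of the 8 groups had 3 replicates, and the series asks how these genes shape the response to stiffness. No treatment other than the gel was given, and the sources used here do not give the editing method or the number of clones per line.

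NEAT1 is the scaffold of paraspeckles, nuclear bodies that hold RNA-binding proteins such as SFPQ and NONO and form only where NEAT1 is transcribed. The gene yields a short polyadenylated form and a long form, and only the long form builds paraspeckles. MALAT1 gathers in nuclear speckles, the neighbouring bodies rich in splicing factors, and is among the most abundant noncoding RNAs of many cell types. Long NEAT1 and MALAT1 have no poly(A) tail of the usual kind, because RNase P cuts both at a tRNA-like structure, and their new 3′ ends are shielded by a helix in which U-rich stretches pair with a genomically encoded A-rich end.

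That shared end is shown because it bears on how a poly(A) kit, which made these libraries, meets the RNAs. The sequences come from the GENCODE 29 transcripts on GRCh38, plus strand. They end at the A-rich tract, and capitals mark a U-rich stretch, written with T, and the A run with the following GCAAAA.
MALAT1-202, chr11:65506007-65506116: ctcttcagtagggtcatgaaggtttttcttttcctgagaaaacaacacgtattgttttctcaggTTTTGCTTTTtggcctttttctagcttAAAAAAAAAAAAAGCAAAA
NEAT1-202, long form, chr11:65445431-65445540: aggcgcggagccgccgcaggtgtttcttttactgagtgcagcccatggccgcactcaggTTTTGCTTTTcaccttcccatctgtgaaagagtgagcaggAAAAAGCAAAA
The U-rich stretch in capitals was the same in both, and the A run before GCAAAA had 13 bases in MALAT1 and 5 in NEAT1. The NEAT1 window ends where the annotated transcript ends, and the MALAT1 window ends 353 bases before it. Elsewhere, the longest A run was 22 bases in the 22743 bases of NEAT1-202 and 5 bases in the 3441 bases of the short form, NEAT1-201. In the 8708 bases of MALAT1-202 it was the run of 13 bases printed here. The tables give 1 value for each gene, so the short and long forms of NEAT1 were not separated, and which RNAs the poly(A) step caught was not tested.

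RefSeq (GRCh38.p14) gave 2 promoter windows of 300 bases for MALAT1, and NEAT1 was not matched. The first window is shown because the study deletes the coactivators of TEAD factors, whose motif was searched in it. Capitals mark GCGTG, a core of the hypoxia response element, on either strand.
MALAT1 promoter, chr11:65497488-65497787, plus strand: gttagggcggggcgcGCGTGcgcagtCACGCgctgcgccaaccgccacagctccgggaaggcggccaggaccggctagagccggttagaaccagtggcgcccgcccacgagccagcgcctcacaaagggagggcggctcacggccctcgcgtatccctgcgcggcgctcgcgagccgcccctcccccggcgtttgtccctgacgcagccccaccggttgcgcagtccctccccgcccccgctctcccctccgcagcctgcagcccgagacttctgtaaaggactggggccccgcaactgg
Searched on both strands, the TEAD motif GGAATG was in neither window, and 14.0% of the 35116 promoters of this length held it. The letters of the AP-1 motif TGANTCA (7.71% of promoters), the heat shock core GAANNTTC (6.77%), the hypoxia core ACGTG (21.4%) and the CRE TGACGTCA (1.85%) were in neither. GCGTG stood at -235 and -224 from the start site in the first window and at -208 in the second, and 36.5% of promoters held it. These matches describe letters in a window and say nothing about binding.

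Levels are given as FPKM, the fragments of a gene as Cufflinks estimates them, divided by transcript length and library depth. The width of the deposited intervals gave depths of 18.8 to 41.28 M fragments with a median of 31.795 M. In replicate 3 of RAP2 tKO on 40 kPa and replicate 1 of LATS dKO on 40 kPa, genes deviated from their group along their GC content (rank correlation -0.597 and -0.567 across genes). Set against the 1 kPa mean of the same line, it was -0.593 and -0.57 there and 0.152 at most in their 4 sister replicates. Genes poor in GC were high in these libraries. By the longest transcript, both noncoding RNAs are poor in GC, with 44.1% in NEAT1 and 40.3% in MALAT1 against a median of 48.1% over tested genes. The short form of NEAT1 is less so, with 52.4% A and T against 55.9% in the long form. Which form the NEAT1 values reflect was not tested. The 2 libraries stood highest in their groups for both RNAs, and results are given with and without them. YAP1 averaged 6.20 ± 0.653 and 6.06 ± 0.178 FPKM on 40 and 1 kPa in YAP/TAZ dKO cells, against 31.6 ± 0.614 and 30.9 ± 1.05 FPKM in WT (SD, n = 3). LATS1 averaged 5.69 ± 0.299 and 5.18 ± 0.307 FPKM in LATS dKO cells, against 12.3 ± 0.156 and 12.9 ± 1.03 in WT. RNA of RAP2B, RAP2C and LATS2 was not lower on average in the lines labelled for them than in WT, and such RNA can persist after a small edit.

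NEAT1 (ENSG00000245532.5) spans 65190245 to 65213011 of chromosome 11 in hg19, the build of the deposited tables, and MALAT1 (ENSG00000251562.7) spans 65265233 to 65273987. The entry AP000769.7 overlaps MALAT1 in these tables, and since the sources used here do not give the strand setting of the counting, their fragments may not be fully separated. Over the 24 libraries NEAT1 lay between 108 and 221 FPKM, a 2.05-fold range with a median of 130.0. MALAT1 lay between 36.2 and 84.4 FPKM, a 2.33-fold range with a median of 59.0. The deposited intervals were narrow for NEAT1 (half-width 4.4 to 6.4% of the value) and wider for MALAT1 (13.0 to 29.2%). As bulk RNA, these levels cannot tell fewer cells of a type from less RNA per cell.

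NEAT1 was high on the soft gel in RAP2 tKO and WT cells and low in every YAP/TAZ dKO library. In RAP2 tKO cells NEAT1 had 109, 111 and 133 FPKM on 40 kPa and 193, 221 and 207 FPKM on 1 kPa. In LATS dKO cells it had 145, 113 and 135 FPKM on 40 kPa and 142, 140.3 and 144 FPKM on 1 kPa. The RAP2 tKO libraries did not overlap between the gels, whereas those of LATS dKO did. In YAP/TAZ dKO cells NEAT1 had 110.5, 127 and 126 FPKM on 40 kPa and 115, 108 and 115 FPKM on 1 kPa. In WT cells it had 124, 117 and 113 FPKM on 40 kPa and 173, 173 and 186 FPKM on 1 kPa. The YAP/TAZ dKO libraries overlapped between the gels, and the WT libraries did not. By group mean, RAP2 tKO on 1 kPa came first (207 ± 13.6 FPKM, SD, n = 3, as for every ± here), then WT on 1 kPa (177 ± 7.61) and LATS dKO on 1 kPa (142 ± 1.90). These 3 groups did not overlap with each other. Below them, LATS dKO on 40 kPa (131 ± 16.6), YAP/TAZ dKO on 40 kPa (121 ± 9.29), WT on 40 kPa (118 ± 5.87), RAP2 tKO on 40 kPa (118 ± 13.3) and YAP/TAZ dKO on 1 kPa (113 ± 4.35) each overlapped with the next, as LATS dKO on 1 kPa did with LATS dKO on 40 kPa.

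The group means of MALAT1 lay in 3 tiers. In RAP2 tKO cells MALAT1 had 48.6, 55.6 and 67.7 FPKM on 40 kPa and 82.0, 69.4 and 78.4 FPKM on 1 kPa. In LATS dKO cells it had 68.4, 46.4 and 52.8 FPKM on 40 kPa and 65.3, 65.0 and 76.2 FPKM on 1 kPa. The gels did not overlap in RAP2 tKO cells and overlapped in LATS dKO cells, through replicate 1 on 40 kPa. In YAP/TAZ dKO cells MALAT1 had 36.2, 43.1 and 39.5 FPKM on 40 kPa and 43.4, 46.3 and 37.0 FPKM on 1 kPa. In WT cells it had 54.3, 59.7 and 58.3 FPKM on 40 kPa and 80.7, 84.4 and 82.3 FPKM on 1 kPa. The gels overlapped in YAP/TAZ dKO cells and not in WT cells. The upper tier held WT (82.5 ± 1.86 FPKM), RAP2 tKO (76.6 ± 6.48) and LATS dKO (68.8 ± 6.37), all on 1 kPa. The middle tier held WT (57.4 ± 2.79), RAP2 tKO (57.3 ± 9.66) and LATS dKO (55.8 ± 11.3) on 40 kPa, and the lowest YAP/TAZ dKO on 1 kPa (42.2 ± 4.80) and 40 kPa (39.6 ± 3.45). Neighbours in this order overlapped within a tier, while LATS dKO on 1 kPa did not overlap with WT on 40 kPa, nor LATS dKO on 40 kPa with YAP/TAZ dKO on 1 kPa. The tiers are of means, and their libraries were not fully apart. Through the GC-skewed libraries, RAP2 tKO (up to 67.7) and LATS dKO (up to 68.4) on 40 kPa overlapped with LATS dKO on 1 kPa (from 65.0). The lowest LATS dKO library on 40 kPa (46.37) stood barely above the highest YAP/TAZ dKO library on 1 kPa (46.34). The plot of both RNAs by library shows these levels.

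**Figure D1:**
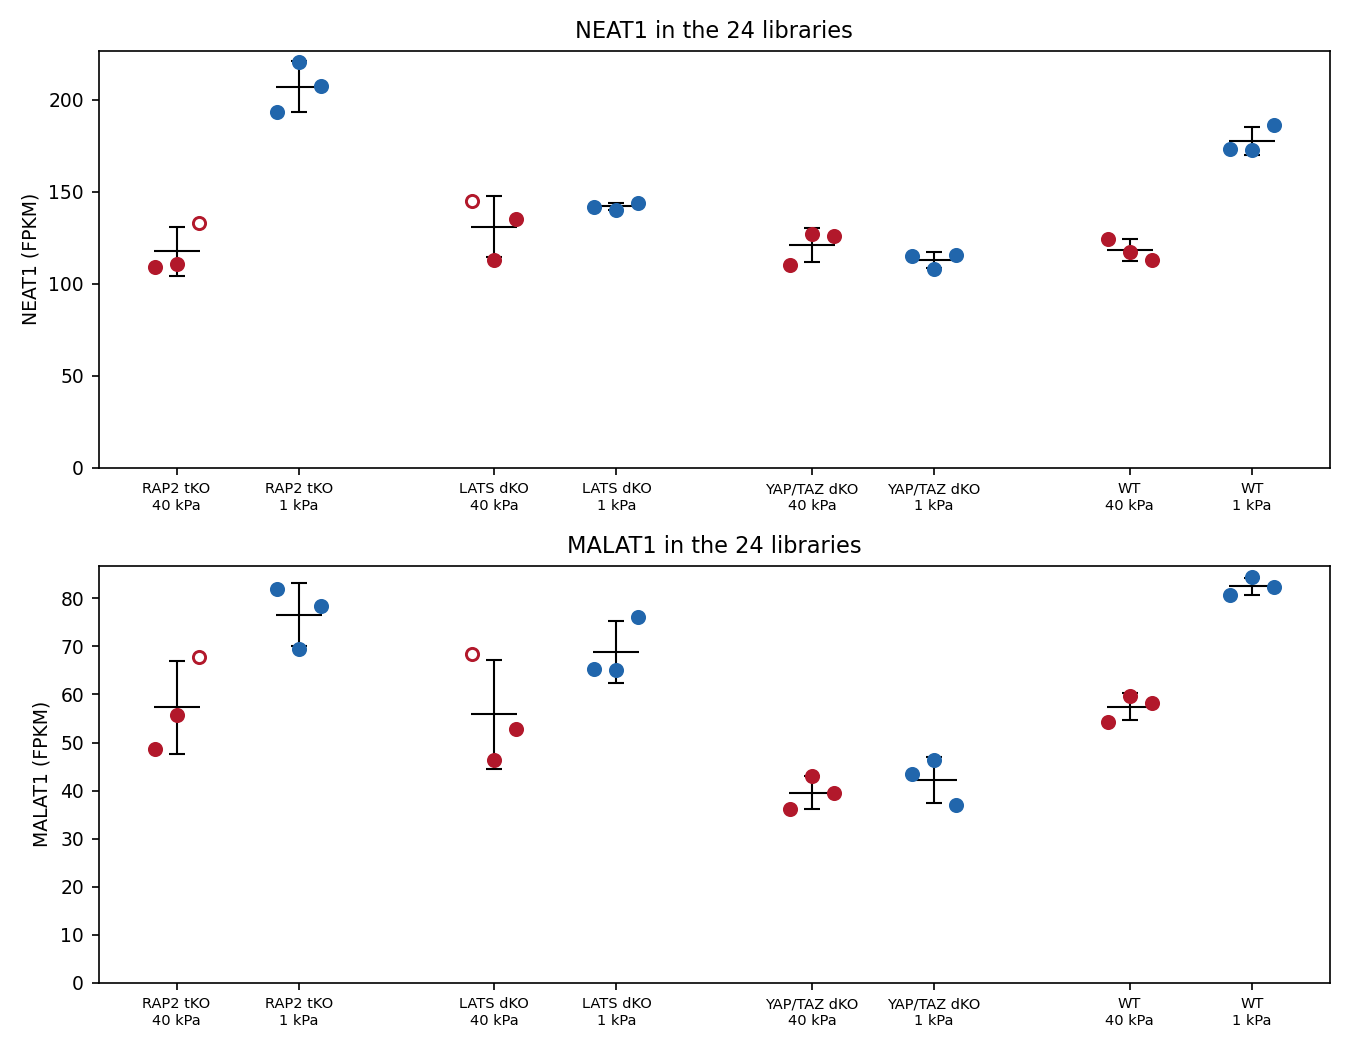
FPKM (y axis, starting at 0) of NEAT1 (top) and MALAT1 (bottom) in each of 24 libraries, by genotype and gel (red, 40 kPa, and blue, 1 kPa), with the mean and SD of 3 libraries as bars and the 2 GC-skewed libraries as open points. In WT the 40 kPa libraries lie at 113 to 124 FPKM for NEAT1, against 173 to 186 on 1 kPa, and the YAP/TAZ dKO libraries lie at 108 to 127 on either gel.

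Stiffness came with lower levels of both RNAs in RAP2 tKO and WT cells and with little difference in YAP/TAZ dKO cells. In LATS dKO cells the NEAT1 difference was smaller than in WT. The MALAT1 difference there was near that of WT once the GC-skewed libraries were left out. Differences are those of mean log2(FPKM + 1), 40 kPa minus 1 kPa, with their SE from a limma fit over all 24 libraries. NEAT1 differed by -0.81 in RAP2 tKO, -0.12 in LATS dKO, 0.10 in YAP/TAZ dKO and -0.58 in WT cells (SE 0.086). MALAT1 differed by -0.42 in RAP2 tKO, -0.31 in LATS dKO, -0.09 in YAP/TAZ dKO and -0.52 in WT cells (SE 0.128). In RAP2 tKO cells, where neither RNA overlapped between the gels, 15.3% of tested genes were lower without overlap, and in WT cells, with the same result, 16.1% were. These shares give the scale only, since the pair was chosen on these levels. Without the GC-skewed libraries the differences were -0.91 for NEAT1 and -0.55 for MALAT1 in RAP2 tKO cells and -0.20 and -0.46 in LATS dKO cells. The LATS dKO values moved the other way without replicate 2 on 40 kPa, to -0.02 for NEAT1 and -0.19 for MALAT1. Without the GC-skewed libraries, which leaves 2 on 40 kPa, LATS dKO cells also had both RNAs lower on 40 kPa without overlap, as 21.1% of tested genes were in that smaller comparison, and RAP2 tKO cells still did (24.7% of tested genes). NEAT1 then had 113 and 135 FPKM on 40 kPa, against 140.3 to 144 on 1 kPa, and MALAT1 46.4 and 52.8, against 65.0 to 76.2. The median difference over all tested genes lay between -0.04 and -0.01 in the 4 genotypes.

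Set against WT, the responses of the lines differed by size and, for NEAT1, in both directions. The RAP2 tKO response of NEAT1 minus that of WT was -0.23, the LATS dKO response minus that of WT 0.46 and the YAP/TAZ dKO response minus that of WT 0.68 (SE 0.122). For MALAT1 these differences of log2 responses were 0.09 in RAP2 tKO, 0.20 in LATS dKO and 0.43 in YAP/TAZ dKO cells (SE 0.181). Without the GC-skewed libraries the RAP2 tKO values were -0.32 for NEAT1 and -0.03 for MALAT1, so the sign of the MALAT1 value turned, and the LATS dKO values were 0.38 and 0.05. The 3 lines share the WT libraries in these differences, as in those that follow.

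The NEAT1 difference from WT was larger in size on the soft than on the stiff gel in every knockout line. On 1 kPa NEAT1 was higher in RAP2 tKO cells by 0.22 on the log2 scale (SE 0.086), lower in LATS dKO cells (-0.32) and lowest in YAP/TAZ dKO cells (-0.65), each without overlap with WT. Of tested genes, 16.8% were higher without overlap in RAP2 tKO, 23.2% lower in LATS dKO and 29.9% lower in YAP/TAZ dKO cells on 1 kPa. MALAT1 on 1 kPa differed from WT by -0.11 in RAP2 tKO, -0.26 in LATS dKO and -0.96 in YAP/TAZ dKO cells (SE 0.128). It overlapped with WT in RAP2 tKO cells and was lower without overlap in both remaining lines. On 40 kPa NEAT1 overlapped with WT in every line, with log2 differences of -0.01 in RAP2 tKO, 0.14 in LATS dKO and 0.03 in YAP/TAZ dKO cells. MALAT1 on 40 kPa overlapped with WT in RAP2 tKO (-0.01) and LATS dKO cells (-0.06) and was lower without overlap in YAP/TAZ dKO cells (-0.53), where 29.1% of tested genes were lower without overlap. Loss of YAP and TAZ thus came with lower MALAT1 on either gel and with lower NEAT1 on the soft gel. Without the GC-skewed libraries the 40 kPa differences became -0.10 for NEAT1 and -0.14 for MALAT1 in RAP2 tKO cells and 0.06 and -0.21 in LATS dKO cells. In those smaller sets NEAT1 in RAP2 tKO cells (23.3% of tested genes lower without overlap) and MALAT1 in LATS dKO cells (25.9%) no longer overlapped with WT.

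**Figure D2:**
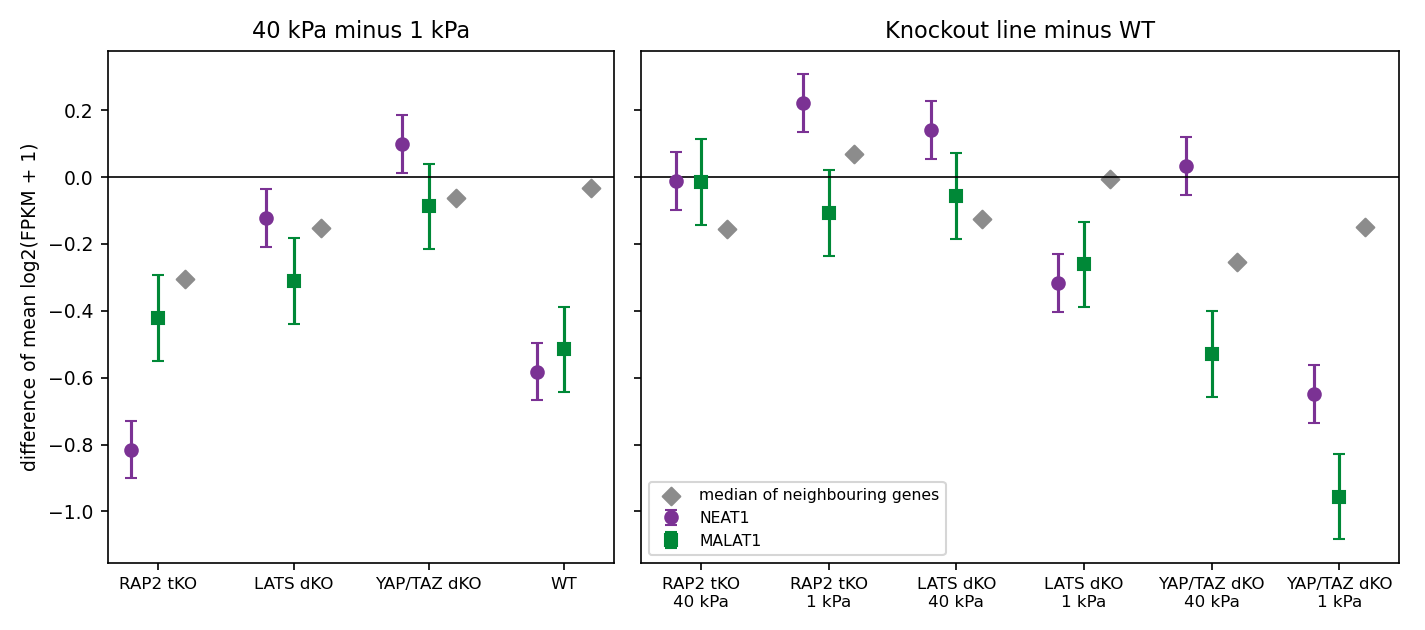
Differences of mean log2(FPKM + 1) of NEAT1 (circles) and MALAT1 (squares) with their SE, and the median of 48 neighbouring genes (grey diamonds), for 40 minus 1 kPa in each genotype (left) and for each knockout line minus WT on each gel (right). NEAT1 stands at -0.65 and MALAT1 at -0.96 in YAP/TAZ dKO cells on 1 kPa, while on 40 kPa NEAT1 stands at 0.03 and MALAT1 at -0.53.

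NEAT1 had the higher FPKM of the pair in every library. Since which RNAs the poly(A) step caught was not tested, the ratio of the pair need not be that of their amounts in the cell. The ratio of MALAT1 to NEAT1 FPKM averaged 0.486 ± 0.0351 on 40 kPa and 0.372 ± 0.0549 on 1 kPa in RAP2 tKO cells, without overlap. It averaged 0.424 ± 0.0419 on 40 kPa and 0.484 ± 0.0386 on 1 kPa in LATS dKO cells, and 0.327 ± 0.0127 on 40 kPa and 0.375 ± 0.0549 on 1 kPa in YAP/TAZ dKO cells. In WT cells it averaged 0.487 ± 0.0442 on 40 kPa and 0.466 ± 0.0229 on 1 kPa. The LATS dKO, YAP/TAZ dKO and WT ratios overlapped between the gels. In LATS dKO cells that overlap came from the GC-skewed library (0.471), and the other 40 kPa libraries (0.390 and 0.411) lay under all 1 kPa libraries (0.461 to 0.529). The YAP/TAZ dKO libraries lay under all WT libraries on both gels, at 0.314 to 0.339 against 0.436 to 0.517 on 40 kPa and at 0.320 to 0.430 against 0.442 to 0.488 on 1 kPa. Across the 24 libraries the log2 levels of both RNAs had a Pearson correlation of 0.780, and 0.812 over the 8 group means, a description of points that share libraries and composition. Deviations from the group means correlated at 0.530 over 24 libraries and at 0.0798 over the 22 without the GC-skewed ones, and 14 of 24 libraries had both RNAs on the same side of their group means. Between replicates of a group, the likeness of the pair thus rested largely on the GC-skewed libraries.

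**Figure D3:**
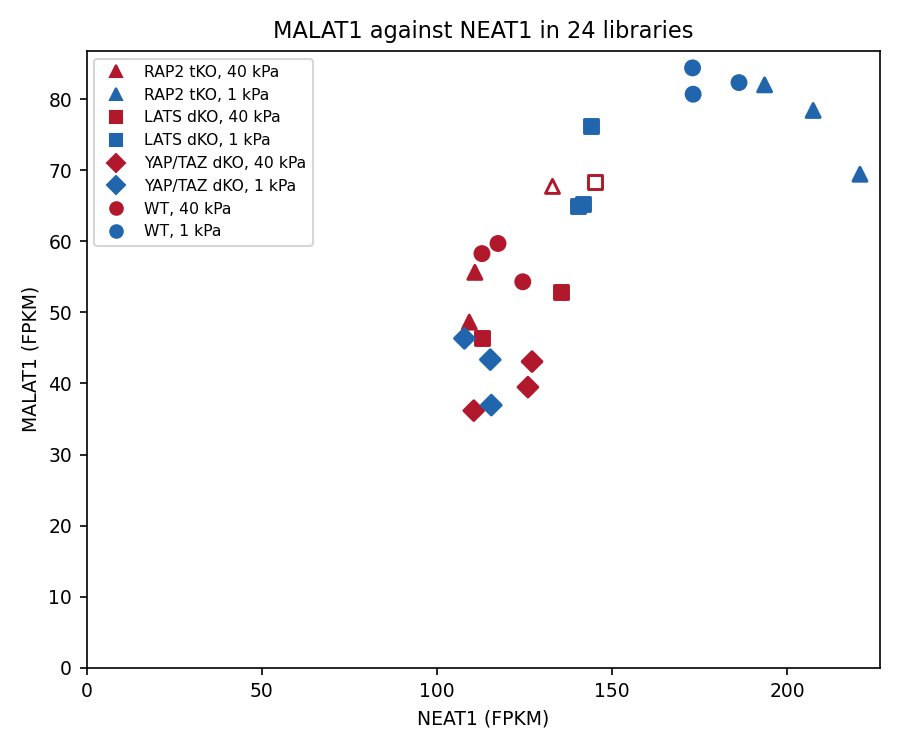
MALAT1 against NEAT1 (FPKM, both axes starting at 0) in the 24 libraries, by genotype (shape) and gel (red, 40 kPa, and blue, 1 kPa), with the 2 GC-skewed libraries open. The YAP/TAZ dKO libraries lie at the bottom left, with MALAT1 at 36.2 to 46.3 FPKM, and RAP2 tKO and WT on 1 kPa lie at the right and top.

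Among 9841 genes ranked by likeness to NEAT1 over the 24 libraries, MALAT1 came first (0.780), while NEAT1 came 250th for MALAT1. Over the 8 group means MALAT1 ranked 66th for NEAT1 and NEAT1 681st for MALAT1. After MALAT1, the genes most like NEAT1 were AHSA2 (0.771), the retinaldehyde reductase gene DHRS3 (0.762), the replication fork gene TIMELESS (0.754), HSBP1L1 (0.748) and the stress-induced transcription factor gene DDIT3 (0.747). DHRS3 averaged 5.50 ± 0.721 FPKM on 40 kPa and 12.0 ± 1.34 on 1 kPa in RAP2 tKO cells. In YAP/TAZ dKO cells it averaged 6.22 ± 0.67 FPKM on 40 kPa and 7.15 ± 0.209 on 1 kPa, against 8.06 ± 0.652 and 12.9 ± 0.748 in WT cells. The genes most like MALAT1 were the asparagine synthetase gene ASNS (0.919), the RNA polymerase II subunit gene POLR2G (0.915), the splicing factor gene SRSF5 (0.912), the replication protein gene RPA3 (0.899) and TIMELESS (0.896). ASNS averaged 41.9 ± 1.19 FPKM on 40 kPa and 53.2 ± 1.55 on 1 kPa in YAP/TAZ dKO cells, against 71.2 ± 2.58 and 104 ± 7.69 in WT cells. Over the 8 group means, 0 of the 5 leading genes of NEAT1 and 1 of the 5 of MALAT1 (ASNS) remained among the leading 5. The lead there went to PMS1 (0.974) for NEAT1 and to C12orf76 (0.981) for MALAT1, so the order of likeness depended on the points used.

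The protein partners were followed through 7 lists with 113 genes, of which 105 passed the filter. They held core and other paraspeckle proteins, factors that choose or cut the 3′ ends of the pair, speckle proteins, reported regulators of NEAT1 transcription and other long noncoding RNAs. Calls are limma's at an adjusted p below 0.05 over all tested genes. The 8 core genes, reported as needed for paraspeckles to form, were all well above the filter, between the lowest library of RBM14 (53.1 FPKM) and the highest of NONO (992 FPKM). SFPQ lay between 429 and 646 FPKM with a median of 469. For stiffness, limma called 0 of the 8 in each genotype. An unadjusted p below 0.05 was reached by 3 in RAP2 tKO cells, 1 in LATS dKO cells and 0 in both YAP/TAZ dKO and WT cells. The share of all tested genes at that unadjusted threshold is not given here. The log2 differences of the 8, 40 minus 1 kPa, ran between -0.23 and 0.24 in RAP2 tKO cells and between -0.25 and 0.11 in LATS dKO cells. They ran between -0.11 and 0.15 in YAP/TAZ dKO cells and between -0.02 and 0.14 in WT cells. Of all tested genes, stiffness called 3.87% in RAP2 tKO, 0.708% in LATS dKO, 0.347% in YAP/TAZ dKO and 0.986% in WT cells.

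Averaged over both gels, some core genes were called between genotypes, few of them outside YAP/TAZ dKO cells. HNRNPK, an RNA-binding protein that favours long NEAT1 in human cells, fell in all 3 lines against WT, with log2 differences of -0.29 (adjusted p = 4.31e-07) in RAP2 tKO, -0.19 (adjusted p = 1.78e-05) in LATS dKO and -0.19 (adjusted p = 8.40e-06) in YAP/TAZ dKO cells. It averaged 463 ± 25.6 FPKM in RAP2 tKO cells on 40 kPa, against 559 ± 8.58 in WT cells on 40 kPa. In YAP/TAZ dKO cells 5 of 8 core genes were called, where 50.6% of all tested genes were. NONO, which binds NEAT1 together with SFPQ, fell to 571 ± 27.7 FPKM on 40 kPa and 582 ± 27.9 on 1 kPa, against 816 ± 36.3 and 827 ± 20.2 in WT (log2 -0.51, adjusted p = 1.22e-07). SFPQ rose to 603 ± 8.22 and 583 ± 4.61 FPKM on 40 and 1 kPa, against 468 ± 8.82 and 452 ± 17.7 in WT (0.37, adjusted p = 0.000421). RBM14, a prion-like domain protein of the core, fell (-0.27, adjusted p = 0.00242). NONO and SFPQ, partners in a dimer, thus moved in opposite directions in YAP/TAZ dKO cells, and did so on either gel. A link to the levels of NEAT1 and MALAT1 was not tested. Against WT, HNRNPK was the 1 core gene called in RAP2 tKO cells, where 8.57% of tested genes were called lower and 7.4% higher, and the 1 called in LATS dKO cells, where 33.9% were called. RBM14 was called in LATS dKO cells too without the GC-skewed libraries.

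**Figure D4:**
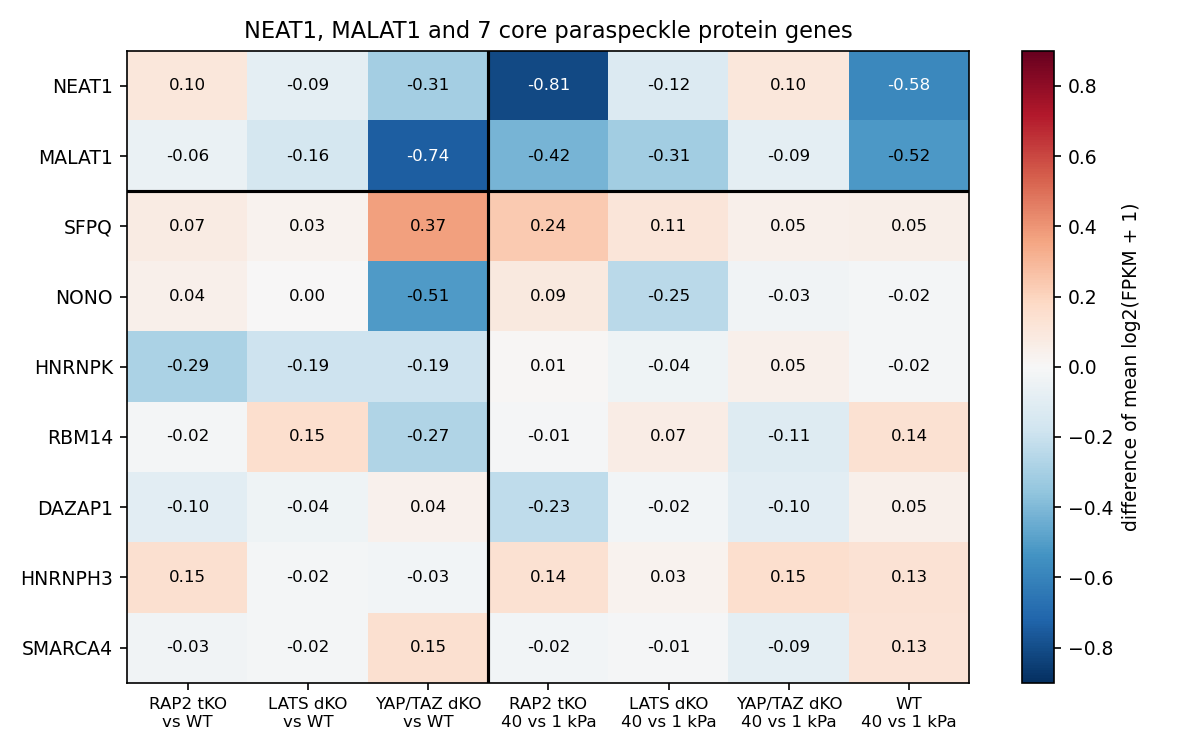
Differences of mean log2(FPKM + 1), as colour and number, of NEAT1, MALAT1 and 7 core paraspeckle protein genes (rows) for each knockout line minus WT averaged over the gels (left 3 columns) and for 40 minus 1 kPa in each genotype (right 4 columns). NONO stands at -0.51 and SFPQ at 0.37 in YAP/TAZ dKO cells, while the stiffness columns of these core genes stay between -0.25 and 0.24.

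Of all 105 listed genes tested, stiffness called 1 higher and 1 lower in RAP2 tKO cells, 2 lower in LATS dKO cells, 1 higher in YAP/TAZ dKO cells and 3 lower in WT cells. In WT cells these were CIRBP, a cold-inducible RNA-binding protein found in paraspeckles, at 139.6 ± 1.00 FPKM on 40 kPa and 175 ± 13.7 on 1 kPa (log2 -0.33, adjusted p = 0.0366), the microRNA host gene MIR17HG (-0.28, adjusted p = 0.0368) and the noncoding RNA LINC00657, also called NORAD (-0.22, adjusted p = 0.0487). LINC00657 was lower also in RAP2 tKO cells (-0.20, adjusted p = 0.0398), beside a higher level of the splicing factor gene SRSF6 (0.19, adjusted p = 0.0198). In LATS dKO cells METTL3, the catalytic subunit of the RNA methylase that modifies adenosines of many RNAs including MALAT1, fell (-0.35, adjusted p = 0.0171), as did AKAP8L (-0.27, adjusted p = 0.0412). In YAP/TAZ dKO cells MIR17HG rose to 22.4 ± 0.533 FPKM on 40 kPa, against 16.8 ± 0.507 on 1 kPa (0.39, adjusted p = 0.00422). Its response was the 1 of 105 listed genes whose response differed from that of WT in any line by the interaction test (0.67 in YAP/TAZ dKO cells, adjusted p = 0.000495), where 0.392% of tested genes were called. For the RAP2 tKO and LATS dKO responses the test called 0 listed genes (6 for RAP2 tKO and 15 for LATS dKO cells at an unadjusted p below 0.05). Of tested genes it called 0.0505% for RAP2 tKO and 0.0632% for LATS dKO cells at an adjusted p below 0.05. No share is given at the unadjusted threshold, so the counts of 6 and 15 have none beside them. The stiffness counts changed with the libraries used. Without any 1 of the 6 libraries compared, WT had 0 to 1 calls, RAP2 tKO 0 to 7 and LATS dKO 0 to 3. Without the GC-skewed libraries there were 5 in RAP2 tKO, 8 in LATS dKO, 4 in YAP/TAZ dKO and 13 in WT cells, of which 12 were lower in WT, and the YAP/TAZ dKO response differed from that of WT for 11 listed genes. Every printed share of all tested genes called by limma comes from the fit of all 24 libraries. Counts from other fits have no such share beside them, so they do not show a change particular to the listed genes. Of the stiffness calls named here, that of MIR17HG in YAP/TAZ dKO cells, with its difference from the WT response, passed under every alternative run, and each of the others was lost under some of them, the removal of single libraries included.

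Between genotypes, listed genes were called in both directions in every line. In RAP2 tKO cells 13 were higher and 5 lower than in WT, in LATS dKO cells 20 and 15, and in YAP/TAZ dKO cells 33 and 30. These were 17.1% of the listed genes in RAP2 tKO and 33.3% in LATS dKO cells, and 63 of 105 in YAP/TAZ dKO cells. Of all tested genes, 7.4% were called higher and 8.57% lower in RAP2 tKO cells, where 2528 of 15828 were called in either direction. In LATS dKO cells 33.9% of all tested genes were called, and in YAP/TAZ dKO cells 50.6%. The RAP2 tKO and LATS dKO shares of listed genes called in either direction were thus near those of all genes. By direction, 12.4% of the listed genes were called higher and 4.76% lower in RAP2 tKO cells. Without the GC-skewed libraries the RAP2 tKO counts were 20 higher and 16 lower, with no share of all tested genes given for that fit. The 20 other paraspeckle genes tested had 1 higher and 0 lower in RAP2 tKO cells, 1 of each in LATS dKO cells, and 9 higher and 3 lower in YAP/TAZ dKO cells. Called in all were 2 of 20 in LATS dKO and 12 of 20 in YAP/TAZ dKO cells, beside 33.9% and 50.6% of all tested genes. The counts were 3 higher and 4 lower in RAP2 tKO, and 2 higher and 4 lower in LATS dKO cells, without the GC-skewed libraries. RBM3, a cold-inducible RNA-binding protein, rose to 867 ± 20.4 FPKM on 40 kPa and 843 ± 30.6 on 1 kPa in YAP/TAZ dKO cells, against 675 ± 20.2 and 619 ± 43.8 in WT (0.40, adjusted p = 7.40e-07). TAF15, an RNA-binding protein, rose there (0.33, adjusted p = 1.91e-05), and RBM7, which brings the RNA exosome to noncoding transcripts, fell (-0.45, adjusted p = 2.79e-06). In LATS dKO cells RBMX rose (0.16, adjusted p = 0.000279) and UBAP2L fell (-0.20, adjusted p = 0.000231).

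Among the 11 factors of NEAT1 3′ end choice, 1 rose and 1 fell in RAP2 tKO, 3 rose and 1 fell in LATS dKO, and 2 rose and 5 fell in YAP/TAZ dKO cells. That is 18.2% in RAP2 tKO, 36.4% in LATS dKO and 63.6% in YAP/TAZ dKO cells. Beside these stand 7.4% of all tested genes called higher and 8.57% lower in RAP2 tKO cells. For LATS dKO and YAP/TAZ dKO cells 33.9% and 50.6% of all tested genes were called. Without the GC-skewed libraries 5 of the 11 factors were higher and 2 lower in LATS dKO cells, a fit with no share of all tested genes given. NUDT21, which with CPSF6 favours the short form, rose in RAP2 tKO cells (0.18, adjusted p = 0.00755), where the cleavage factor gene CSTF3 fell (-0.21, adjusted p = 0.0314), a call that was lost when some single libraries were left out. CSTF2 rose to 59.3 ± 4.76 FPKM on 40 kPa and 62.5 ± 1.93 on 1 kPa in LATS dKO cells, against 40.3 ± 0.385 and 36.2 ± 0.149 in WT (0.66, adjusted p = 2.00e-08). CPSF2 rose in LATS dKO cells (0.46, adjusted p = 9.51e-06) and fell in YAP/TAZ dKO cells to 31.6 ± 1.82 and 32.4 ± 0.113 FPKM on 40 and 1 kPa, against 47.4 ± 1.17 and 47.0 ± 1.96 in WT (-0.55, adjusted p = 4.90e-07). CPSF4 fell there as well (-0.51, adjusted p = 7.20e-07).

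Of the 14 genes of MALAT1 3′ end processing, RNase P subunits and RNA methylases among them, 0 were called in RAP2 tKO cells (3 at an unadjusted p below 0.05 by limma), 4 rose and 2 fell in LATS dKO, and 4 rose and 3 fell in YAP/TAZ dKO cells. The called shares, 42.9% in LATS dKO and 50.0% in YAP/TAZ dKO cells, stand beside 33.9% and 50.6% of all tested genes. In RAP2 tKO cells 7.4% of all tested genes were called higher and 8.57% lower, with no share given at the unadjusted threshold. Without the GC-skewed libraries 1 of the 14 was higher and 1 lower in RAP2 tKO cells, and 7 were higher and 5 lower in YAP/TAZ dKO cells. No share of all tested genes is given for that fit. The RNase P subunit gene POP5 fell to 55.6 ± 0.712 FPKM on 40 kPa and 53.2 ± 1.82 on 1 kPa in YAP/TAZ dKO cells, against 71.5 ± 1.08 and 73.7 ± 4.40 in WT (-0.41, adjusted p = 3.00e-08). POP4 fell there too (-0.25, adjusted p = 1.34e-05), while RPP14 rose (0.40, adjusted p = 0.00085). METTL16, which binds the helix at the MALAT1 end, rose in LATS dKO (0.17, adjusted p = 0.0317) and YAP/TAZ dKO cells (0.27, adjusted p = 0.000968). The LATS dKO call of METTL16 was lost without the GC-skewed libraries and without some single libraries.

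Among the 23 speckle genes, where MALAT1 resides, 6 rose and 0 fell in RAP2 tKO cells, 6 rose and 3 fell in LATS dKO cells, and 7 rose and 5 fell in YAP/TAZ dKO cells. Called higher in RAP2 tKO cells were thus 26.1% of them and 7.4% of all tested genes, while the shares called were 39.1% against 33.9% of all in LATS dKO and 52.2% against 50.6% of all in YAP/TAZ dKO cells. The RAP2 tKO count without the GC-skewed libraries was 10 higher and 1 lower, with no share of all tested genes given for that fit. Calls over all 105 listed genes were also more numerous in that fit, with 20 higher and 16 lower. SRSF5 fell to 403 ± 8.11 FPKM on 40 kPa and 388 ± 3.02 on 1 kPa in YAP/TAZ dKO cells, against 497 ± 10.4 and 551 ± 8.59 in WT (-0.40, adjusted p = 1.20e-07). The speckle scaffold gene SRRM2 rose in YAP/TAZ dKO cells (0.40, adjusted p = 9.80e-07) and fell in LATS dKO cells (-0.20, adjusted p = 0.00247), there not with a GC correction. CLK1 and CLK4, kinases of splicing factors, were called in different lines, CLK1 higher in RAP2 tKO (0.26, adjusted p = 0.00889) and CLK4 higher in LATS dKO cells (0.36, adjusted p = 0.000265). The difference between the lines was not tested.

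Of 6 reported regulators of NEAT1 transcription, 2 rose and 1 fell in RAP2 tKO, 1 rose and 2 fell in LATS dKO, and 3 rose and 2 fell in YAP/TAZ dKO cells. All tested genes were called at 7.4% higher and 8.57% lower, 33.9% and 50.6% in these lines. In LATS dKO cells 3 regulators were higher and 2 lower without the GC-skewed libraries, a fit with no share of all tested genes given. HIF1A, the oxygen-regulated subunit of a hypoxia factor, fell in YAP/TAZ dKO cells to 42.7 ± 4.11 FPKM on 40 kPa and 43.9 ± 2.49 on 1 kPa, against 68.1 ± 3.59 and 65.7 ± 3.38 in WT (-0.62, adjusted p = 1.00e-07). It rose in RAP2 tKO (0.24, adjusted p = 0.0115) and LATS dKO cells (0.29, adjusted p = 0.00104). EPAS1, the HIF-2 subunit, moved the other way in each line, falling in RAP2 tKO (-0.51, adjusted p = 0.0139, not called when only the groups compared were fitted) and LATS dKO cells (-0.65, adjusted p = 0.00101) and rising in YAP/TAZ dKO cells (0.50, adjusted p = 0.00473), at 2.05 to 6.69 FPKM by group mean. NEAT1 averaged -0.31 and MALAT1 -0.74 on the log2 scale in YAP/TAZ dKO cells against WT over both gels. By gel, NEAT1 differed by 0.03 on 40 kPa and -0.65 on 1 kPa, and MALAT1 by -0.53 and -0.96. A link between these regulators and the pair was not tested. STAT3 fell in LATS dKO (-0.28, adjusted p = 0.00755) and YAP/TAZ dKO cells (-0.20, adjusted p = 0.0371), that in YAP/TAZ dKO cells being lost when some single libraries were left out.

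Other long noncoding RNAs were called in both directions in every line. Of 23 tested, 3 rose and 2 fell in RAP2 tKO, 5 rose and 5 fell in LATS dKO, and 6 rose and 9 fell in YAP/TAZ dKO cells. These are shares of 21.7% in RAP2 tKO, 43.5% in LATS dKO and 65.2% in YAP/TAZ dKO cells. Of all tested genes, 7.4% were called higher and 8.57% lower in RAP2 tKO cells. For LATS dKO and YAP/TAZ dKO cells 33.9% and 50.6% of all tested genes were called. Without the GC-skewed libraries 3 of the 23 were higher and 7 lower in RAP2 tKO cells, a fit with no share of all tested genes given. HOTAIRM1, from the HOXA cluster, fell to 18.9 ± 3.39 FPKM on 40 kPa and 14.0 ± 3.12 on 1 kPa in YAP/TAZ dKO cells, against 62.1 ± 3.29 and 70.3 ± 10.9 in WT (-1.97, adjusted p = 9.00e-08), and fell in LATS dKO cells (-0.88, adjusted p = 0.00143). SNHG15 fell in YAP/TAZ dKO cells (-0.49, adjusted p = 1.00e-08). FTX rose there to 5.81 ± 0.207 and 5.92 ± 0.844 FPKM on 40 and 1 kPa, against 2.83 ± 0.302 and 3.09 ± 0.17 in WT (0.79, adjusted p = 4.00e-08), and CRNDE rose by 0.55 (adjusted p = 2.00e-08). The median log2 difference of the 23 for stiffness was -0.06 in RAP2 tKO, -0.04 in LATS dKO, 0.04 in YAP/TAZ dKO and -0.14 in WT cells. Over all tested genes it was -0.04 in RAP2 tKO, -0.03 in LATS dKO, -0.01 in YAP/TAZ dKO and -0.03 in WT cells.

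For stiffness, the genes around the pair had a median near that of all genes in WT cells. In YAP/TAZ dKO cells their median lay below WT. Within 500 kb of the span, 48 tested genes had a median log2 difference for stiffness of -0.30 in RAP2 tKO, -0.15 in LATS dKO, -0.06 in YAP/TAZ dKO and -0.03 in WT cells. Their median GC content was 60.5%, and without the GC-skewed libraries the medians were -0.01 in RAP2 tKO and -0.06 in LATS dKO cells, while the values of NEAT1 and MALAT1 became larger in size. Against WT, the neighbours of YAP/TAZ dKO cells had a median of -0.19 over both gels, beside 0.001 over all tested genes. It was -0.25 on 40 kPa and -0.15 on 1 kPa, beside 0.0096 and -0.0139 over all tested genes. Whether this bears on the levels of the pair was not tested. Among the nearest genes above the level limit were FRMD8, LTBP3 and SSSCA1. FRMD8, 9249 bases from the span, averaged 13.3 ± 2.14 FPKM on 40 kPa and 12.7 ± 3.47 on 1 kPa in WT cells. LTBP3, which binds latent TGF-beta, averaged 34.6 ± 4.66 FPKM on 40 kPa and 35.9 ± 4.16 on 1 kPa in YAP/TAZ dKO cells, against 43.4 ± 1.01 and 51.5 ± 5.74 in WT cells.

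Markers of other cell types were low. The 4 endothelial markers with usable values were under 1 FPKM in every library and summed to 0.0487 to 0.816 FPKM, the 6 immune markers summed to 3.04 to 8.29 FPKM, with 4 of 6 under 1 FPKM throughout, and the 6 fibroblast markers to between 5.0 and 26.7 FPKM, with DCN at 0 in all libraries. The fibroblast sum was 22.6 to 26.7 FPKM in LATS dKO cells and at most 7.84 elsewhere. Of the 6 epithelial markers, KRT8 and KRT18 carried most of the sum, and EPCAM and CDH1 were under 1 FPKM in all libraries. They summed to 599 to 613 FPKM on 40 kPa and 534 to 556 on 1 kPa in RAP2 tKO cells. Their sum was 893 to 988 FPKM on both gels in LATS dKO cells, 74.6 to 90.1 in YAP/TAZ dKO cells, and 478 to 507 on 40 kPa and 288 to 312 on 1 kPa in WT cells. The epithelial sum, in effect a keratin sum, was lowest in the line with the lowest MALAT1, and within WT higher on the gel on which both RNAs were lower. Its part in the levels of the pair was not tested.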

How the data were processed

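TRIzol was used to extract RNA, and a stranded poly(A) kit with index set A or B to make libraries, per the labels' protocols. The labels do not say which library had which set, so no batch was tested. Per the submitters' processing notes, the tools were STAR 2.4.2a and Cufflinks 2.2.1, with hg19. Annotation release, strand setting and handling of multimapping reads: not given in the sources used here. For each library the authors deposited 1 table of gene FPKM values, with a status and an interval per gene, per the file headers. Of 60350 entries under 58266 symbols, 338 symbols on several entries were summed and 92 with an unusable status left out.

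Tests were run on log2(FPKM + 1) for 15828 genes, those at 1 FPKM or more in 3 or more libraries, with limma 3.58.1 in R 4.3.3. All 24 libraries entered with 1 mean per group (16 residual degrees of freedom) and a trend of spread on level. The test was two-sided, with Benjamini-Hochberg adjustment within each of 10 comparisons and calls at an adjusted p below 0.05. This scale understates differences of genes with low FPKM. The script was tested on simulated data. No 2 libraries held identical values. The replicates are separate samples per the labels, and p-values measure the spread between them.

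NEAT1 and MALAT1, the gene lists and the rules were chosen with earlier results of these data known. Genes named from a list were at most 2 higher and 2 lower called members per comparison with the largest change, at a mean FPKM of at least 5 in the higher group. Likeness was a Pearson correlation of log2(FPKM + 1), with the 5 leading genes named, and of the neighbours within 500 kb the 4 nearest were named. Some genes that these rules select are not reported here. Alternatives were a replicate block, another scaling, pseudocount and filter, a GC correction, a fit of only the groups compared and leaving out libraries.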

Additional observations from a re-analysis of the deposited data

Results flagged for a closer look

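The response of MIR17HG, the host gene of a microRNA cluster, to stiffness differed between YAP/TAZ dKO and WT cells by the interaction test. The difference of log2 responses was 0.669 (adjusted p = 0.000495 by limma, over all tested genes). In YAP/TAZ dKO cells it averaged 22.4 ± 0.533 FPKM on 40 kPa and 16.8 ± 0.507 on 1 kPa (SD, n = 3), without overlap. In WT cells it averaged 14.8 ± 0.507 FPKM on 40 kPa and 18.2 ± 1.11 on 1 kPa.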

How the results depend on the processing

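All 520 alternatives to the differences of NEAT1 and MALAT1 moved them by less than the replicate SD of the gene (0.108 and 0.163 on the log2 scale). Part of this was fixed in advance, so the count is no measure of how firm the differences are. The block, the filters and the fit of only the groups compared cannot change a difference of group means. Leaving out 1 library, the NEAT1 stiffness difference in LATS dKO cells (-0.12) ran from -0.20 to -0.02. Values near 0 still changed sign. Leaving out 1 library, the MALAT1 difference from WT on 40 kPa lay between -0.14 and 0.10 in RAP2 tKO and between -0.21 and 0.07 in LATS dKO cells. Counts of calls among the listed genes also moved, and the share of all tested genes called under each alternative is not given here. For stiffness in WT (3 calls) the count was 0 with a replicate block, with scaling to a common median ratio, with no filter and with only the groups compared, 9 with a GC correction, 13 without both GC-skewed libraries and 0 to 1 leaving out a library. For RAP2 tKO (2 calls) it was 0 with only the groups compared, 1 with no filter, 10 with a GC correction, 5 without both GC-skewed libraries and 0 to 7 leaving out a library. For LATS dKO (2 calls) it was 1 with the block, 1 with scaling, 0 with only the groups compared, 8 without both GC-skewed libraries and 0 to 3 leaving out a library. For YAP/TAZ dKO (1 call) it was 4 without both GC-skewed libraries. The RAP2 tKO count against WT (18) was 36 without them. The count of the YAP/TAZ dKO response against that of WT (1) was 11 without them, 4 with a GC correction, 8 with only the groups compared and 1 to 2 leaving out a library, and that of the LATS dKO response (0) was 0 to 1 leaving out a library. The cause was not tested. Replicate numbers did not pair the libraries: of 84 same-numbered pairs, 3 had a correlation of deviations over 0.1 (-0.25 to 0.15), so the block is given for completeness. Stranded counting, fragment counts and isoforms were not analysed here, and MALAT1 has the wider deposited intervals.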
